A study of Homo sapiens with 5 samples.

Results

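The genes of axon guidance signalling were examined in RH4 cells, an established line of alveolar rhabdomyosarcoma, a soft-tissue tumour of the muscle lineage, after depletion of the circular RNA circVAMP3. The members were selected on gene symbol and comprised the protein-coding genes of the ephrin, EPH, semaphorin, plexin A to D, SLIT, ROBO, UNC5 and LRRN families together with NRP1, NRP2, DCC, NEO1 and NTN1. These families were chosen by earlier results of the same contrast, so the counts, medians and fold changes of the members are given as descriptions and support nothing beyond themselves. The rule found 54 of the 13822 genes in the table. Of these, 25 encode guidance cues, 26 belong to the families of receptors and coreceptors and 3 to the LRRN group. The 26 count UNC5CL, which resembles the inner part of the UNC5 receptors and lacks their netrin-binding part. UNC50, whose symbol begins with the same letters as the netrin receptors UNC5A to UNC5D but which is unrelated to them, was left out, as were the SLITRK genes. A further 20 protein-coding genes of these families, among them DCC, SLIT2, SLIT3, EPHA5, SEMA3F and UNC5C, had no row in the table used.

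The cells had been transfected at 30 nM with either a control siRNA, si-SCR, or si-circVAMP3, which is directed against the back-splicing junction of the circle. Medium was changed 24 h later and cells were collected 24 h after that. Poly-A+ RNA was sequenced from 3 biological replicates of si-SCR and 2 of si-circVAMP3, with strand kept. Values are FPKM, reads scaled to exon length and library size, and the median gene of the table was covered by 668, 634 and 620 reads in the si-SCR libraries and by 455 and 712 in the si-circVAMP3 libraries. All 13 myogenic and rhabdomyosarcoma marker genes examined were present, with DES, the muscle intermediate filament desmin, the most abundant at a mean of 269 FPKM. Their summed FPKM was 1151, 1138 and 999 in si-SCR and 939 and 948 in si-circVAMP3. Markers of other cells were low or had no row. The summed FPKM of the neuronal list, of which 2 of 6 genes had a row, stayed at or below 0.805 in every library. That of the endothelial list (1 of 4) stayed at or below 0.153 and that of the fibroblast list (3 of 5) at or below 1.87. No blood marker of 3 had a row. DCN and PDGFRA, of the fibroblast list, reached 0.813 and 0.882 FPKM and passed the filter on low values described below.

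Axon guidance molecules are cues and receptors that steer growing nerve fibres by attraction or repulsion, and many tissues use them outside the nervous system to sort cells, place boundaries and control migration. Ephrins are membrane-bound ligands of the EPH receptor tyrosine kinases, semaphorins signal through plexins and neuropilins, SLIT proteins through ROBO receptors and netrins through DCC, neogenin and the UNC5 receptors. In developing muscle, EPHA4 and its ephrin ligands guide migrating limb muscle precursors, and semaphorins, netrin and neogenin take part in myoblast migration and fusion. The LRRN proteins are transmembrane proteins with extracellular leucine-rich repeats, best known from the nervous system.

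The siRNA sequence is shown because it defines the treatment and is searched for further on. Its sense strand is printed 5′ to 3′ with the bases of exon 3 of VAMP3 in capitals and those of exon 4 in lower case.
si-circVAMP3 sense strand: caucaucgGUGGUGGACAU
si-circVAMP3 antisense strand: aUGUCCACcaccgaugaug
In the antisense strand the capitals mark bases 2 to 8, the stretch through which small RNAs pair with partly matching messages. The 19 bases lay unbroken across the back-splice junction of the 211-base circle rebuilt from exon 3 (chr1:7777160-7777318) and exon 4 (chr1:7778118-7778169) of VAMP3 on the plus strand of GRCh38, with 8 bases on the exon 4 side and 11 on the exon 3 side, and were not found in the linear transcript. The circle has no poly-A tail, and its own level was not analysed here. The linear VAMP3 mRNA, which encodes a vesicle fusion protein, stood at 36.4, 35.4 and 37.4 FPKM in si-SCR and at 29.4 and 30.2 FPKM in si-circVAMP3. Both si-circVAMP3 libraries were below all si-SCR libraries, by 18.2% between the means, and the log2 fold change was -0.29 (95% interval -0.39 to -0.18, adjusted p = 0.005 by limma). Over 15 alternative settings this adjusted p ran from 0.0029 to 0.051, and it passed 0.05 only without si-circVAMP3 replicate 1, at a log2 fold change of -0.27.

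The si-SCR replicate 3 library stood apart from the other si-SCR libraries. On the main axis of variation, which held 65.0% of the variance, the groups separated, and on the next, with 18.4%, si-SCR replicate 3 lay away from the rest. The spread of its log2 values around the group median was 0.17, against 0.12 and 0.10 for si-SCR replicates 1 and 2. Among the 44 members that passed the filter on low values, it held the lowest si-SCR value of 26, whereas over all 12246 genes tested it held the lowest si-SCR value of 35.0%. SEMA6B, a transmembrane semaphorin and the member with the highest FPKM, read 68.6, 57.3 and 42.6 FPKM in si-SCR and 62.2 and 69.2 FPKM in si-circVAMP3, so that the groups overlapped. Its log2 fold change was 0.25 (-0.18 to 0.68) with all libraries, 0.07 without si-SCR replicate 3 and 0.41 without si-SCR replicate 1. PLXNB2, a plexin that binds class 4 semaphorins, read 24.6, 21.7 and 16.6 FPKM and 24.3 and 23.3 FPKM. It moved likewise, from 0.20 with all libraries to 0.05 without si-SCR replicate 3 and 0.33 without si-SCR replicate 1. Neither gene was called with all libraries, without si-SCR replicate 3 or without si-SCR replicate 1.

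**Figure D1:**
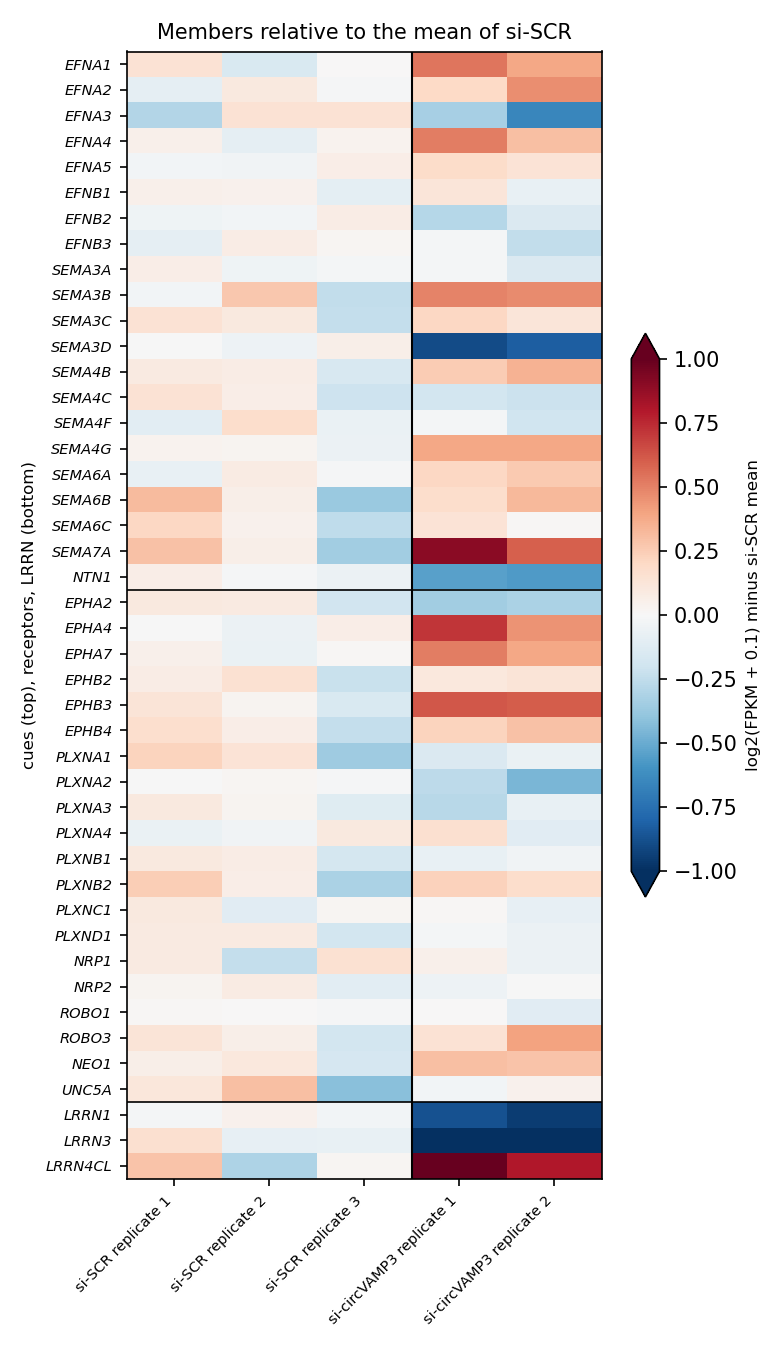
Log2(FPKM + 0.1) of the 44 members that passed the filter, each minus its mean over the 3 si-SCR libraries, in every library (columns), with cues above, receptors in the middle and LRRN genes at the bottom. Colours run from -1 to 1. LRRN3 passes the lower end in both si-circVAMP3 libraries, and LRRN4CL passes the upper end in si-circVAMP3 replicate 1 only. The si-SCR replicate 3 column is the bluest si-SCR column for SEMA6B, PLXNA1, PLXNB2 and UNC5A.

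A gene was tested where the mean of its group means reached 0.5 FPKM, and called where limma's p, adjusted over all 12246 genes tested, was under 0.05. Of the 44 members tested, 16 were called (36.4%), beside 30.2% of all genes. By direction, 9 members were higher in si-circVAMP3, beside 14.4% of all genes, and 7 were lower, beside 15.7%. Of the 9, LRRN4CL passed the filter only through its si-circVAMP3 values. With the further requirement of an absolute log2 fold change over 0.58, 7 members (15.9%) and 5.54% of all genes passed. The values of the groups did not overlap for 24 members (54.5%), beside 58.4% of all genes. The median log2 fold change of the tested members was 0.02 and that of all genes 0.01, and the median absolute log2 fold change was 0.24 beside 0.17. Nothing is read from these shares, since the families were selected with this contrast known. A large part of the transcriptome differed between the groups, and a share near that of all genes is not a result about the members. The counts by family below stand beside the same shares of all genes, and nothing is read from them either. These counts moved with single libraries. Without si-SCR replicate 3, 18 members were called, of which 15 were among the 16 above, beside 3987 of all genes in place of 3693. Without si-SCR replicate 1 there were 14 members beside 3040 genes, and without si-SCR replicate 2 there were 11 (7 higher and 4 lower) beside 2172. The lowest counts came without si-circVAMP3 replicate 1, with 7 members (2 higher and 5 lower) beside 1299 genes, and without si-circVAMP3 replicate 2, with 8 members (4 higher and 4 lower) beside 1267.

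**Figure D2:**
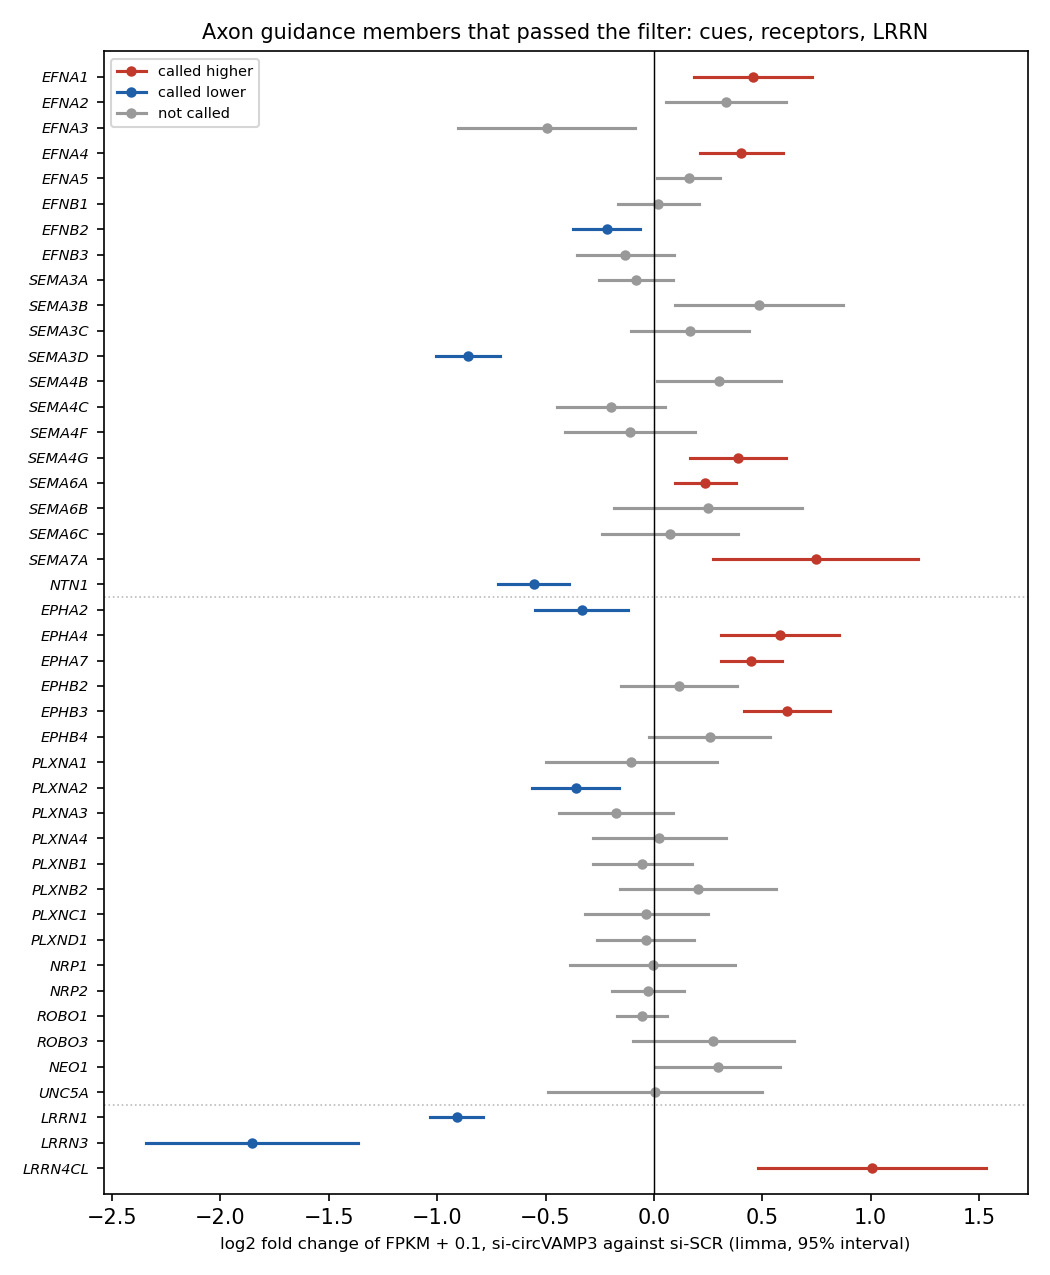
Log2 fold change of FPKM + 0.1 in si-circVAMP3 against si-SCR with its 95% interval from limma for the 44 members tested, with cues above, receptors in the middle and LRRN genes at the bottom, coloured by call. LRRN3 lies farthest to the left at -1.86 and LRRN4CL farthest to the right at 1.01, and the plexins and neuropilins other than PLXNA2 lie from -0.17 to 0.20.

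Markers of the cells were tested in the same fit, and 3 of the 13 myogenic and rhabdomyosarcoma markers were called, all lower, beside 30.2% of all genes called and 15.7% called lower. MYOG, the myogenic transcription factor myogenin, read 175, 179 and 149 FPKM in si-SCR and 101 and 96.6 FPKM in si-circVAMP3. Every si-circVAMP3 value was below every si-SCR value, by 41.2% between the means, at a log2 fold change of -0.76 (-0.95 to -0.57, adjusted p = 0.0016 by limma) that was called in all 15 alternatives. CHRND, a subunit of the muscle acetylcholine receptor, and FOXO1, a transcription factor, had log2 fold changes of -0.31 and -0.28. CHRND lost its call without si-circVAMP3 replicate 2, at -0.24, and FOXO1 without si-SCR replicate 2 and without si-circVAMP3 replicate 1 or 2, at -0.27, -0.23 and -0.32. MYOD1, the transcription factor of the myoblast, read 115, 105 and 84.3 FPKM and 106 and 127 FPKM, with overlapping groups and a log2 fold change of 0.20 (-0.13 to 0.53). These markers were named after their values were seen. The part of these shifts in the values of the members was not tested.

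Among the cues, all 8 ephrin genes with a row were tested, and 2 were called higher and 1 lower. The ephrin-A ligands are held to the membrane by a lipid anchor. EFNA4, the most abundant of them, read 9.22, 8.34 and 9.09 FPKM in si-SCR and 12.7 and 10.9 FPKM in si-circVAMP3. Both si-circVAMP3 values were above all si-SCR values, and the log2 fold change was 0.40 (95% interval 0.21 to 0.60, adjusted p = 0.012 by limma). The call was lost without si-circVAMP3 replicate 1, at a log2 fold change of 0.30, and over 15 alternative settings adjusted p by limma ran from 0.0078 to 0.086. EFNA1, a ligand of EPHA2, read 2.10, 1.68 and 1.89 FPKM in si-SCR and 2.77 and 2.49 FPKM in si-circVAMP3. It was higher in both si-circVAMP3 libraries than in any si-SCR library, from 91 to 155 reads a library, with a log2 fold change of 0.46 (0.19 to 0.73, adjusted p = 0.026 by limma). Its adjusted p ran from 0.017 to 0.16 over the limma alternatives and missed 0.05 without si-SCR replicate 2 and without either si-circVAMP3 library, where the log2 fold changes were 0.38, 0.38 and 0.53.

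EFNA2 and EFNA3 stood just outside the threshold. EFNA2 had 1.62, 1.87 and 1.72 FPKM in si-SCR and 2.00 and 2.44 FPKM in si-circVAMP3 (log2 fold change 0.33, adjusted p = 0.07 by limma). Its log2 fold change was 0.47 without si-circVAMP3 replicate 1 and 0.20 without si-circVAMP3 replicate 2. EFNA3, named after its values were seen, had 1.66, 2.28 and 2.29 FPKM and 1.61 and 1.27 FPKM, a log2 fold change of -0.50 at adjusted p = 0.07 by limma. It was the only ephrin-A gene with both si-circVAMP3 values below all si-SCR values, by a margin of less than 0.1 FPKM, and without si-SCR replicate 1 it was called, at -0.64. EFNA3 and EFNA4 are neighbours on chromosome 1 joined by an annotated readthrough gene, EFNA4-EFNA3. Its exons overlap both on the same strand, so the reads counted for each are uncertain. EFNA5, also named after its values were seen, had a log2 fold change of 0.16 and was called without si-SCR replicate 3, at 0.19.

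The ephrin-B ligands span the membrane and can signal back into the cell that carries them. EFNB2 read 13.9, 14.0 and 15.0 FPKM in si-SCR and 11.7 and 12.9 FPKM in si-circVAMP3. Both si-circVAMP3 values were below all si-SCR values by a narrow margin, and the log2 fold change of -0.22 (-0.37 to -0.06) had the adjusted p nearest to the threshold among called members, 0.044 by limma. This call was lost when any of the 5 libraries was left out, with log2 fold changes from -0.29 to -0.15, with quantile normalization, without the intensity trend and with a replicate block; adjusted p by limma ran from 0.033 to 0.25 over 15 alternatives. EFNB1, the most abundant ephrin-B, read 15.4, 15.3 and 13.9 FPKM and 16.1 and 14.1 FPKM, with overlapping groups and a log2 fold change of 0.02 (-0.16 to 0.21).

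Of the 15 semaphorin genes with a row, 12 were tested; 1 was called lower and 3 higher. SEMA3D, a secreted class 3 semaphorin that signals through neuropilins and plexins (chr7:84995553-85187056, GRCh38), read 9.23, 8.91 and 9.63 FPKM in si-SCR and 4.93 and 5.19 FPKM in si-circVAMP3. The groups lay far apart, at 9.26 ± 0.362 FPKM (SD, n = 3) and 5.06 ± 0.185 FPKM (SD, n = 2), a level 45.3% lower. The log2 fold change was -0.86 (SE 0.06, adjusted p = 4.4e-04 by limma), and it ran from -0.89 to -0.76 and stayed under the threshold in all 15 alternatives. In these bulk samples fewer cells that carry an RNA and less of it per cell cannot be told apart. The most abundant class 3 gene, SEMA3C, read 19.2, 18.7 and 14.7 FPKM and 20.2 and 19.0 FPKM, with overlapping groups and a log2 fold change of 0.17 (-0.11 to 0.44), which was 0.05 without si-SCR replicate 3. SEMA3B, the uncalled member nearest to the threshold, read 0.943, 1.19 and 0.799 FPKM and 1.40 and 1.38 FPKM. Both of its si-circVAMP3 values were above all si-SCR values, with a log2 fold change of 0.49 (0.10 to 0.87) and adjusted p = 0.064 by limma. It was called without si-SCR replicate 2 at 0.62, with quantile normalization, with protein-coding genes only and with limma voom on recovered reads.

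The semaphorins called higher were SEMA7A, SEMA4G and SEMA6A. SEMA7A, which is anchored by a lipid and signals through integrins and PLXNC1, read 1.74, 1.46 and 1.08 FPKM in si-SCR and 2.70 and 2.17 FPKM in si-circVAMP3. The si-circVAMP3 values were the highest, but the si-SCR values themselves spread widely, with si-SCR replicate 3 lowest. On the log2 scale the difference was 0.75 (0.27 to 1.22, adjusted p = 0.032 by limma). The call was lost without si-SCR replicate 2 and without either si-circVAMP3 library, where the estimates were 0.78, 0.59 and 0.90, and adjusted p by limma ran from 0.015 to 0.19 over 15 alternatives. SEMA4G, a transmembrane class 4 semaphorin, read 1.31, 1.30 and 1.22 FPKM and 1.71 and 1.70 FPKM. Its replicates lay close together and the groups apart, with a log2 fold change of 0.39 (0.16 to 0.61, adjusted p = 0.023 by limma); the call was lost with a replicate block, without si-SCR replicate 2, at 0.40, and without si-circVAMP3 replicate 1 or 2, at 0.38 and 0.39, in a range of adjusted p from 0.01 to 0.12. SEMA6A, a transmembrane semaphorin that binds plexin A proteins, read 14.0, 15.7 and 14.6 FPKM and 17.1 and 17.7 FPKM. It was 17.9% higher in si-circVAMP3, the smallest increase among called members, with a log2 fold change of 0.24 (0.10 to 0.38, adjusted p = 0.026 by limma). That call was lost without the intensity trend, without si-SCR replicate 1, at 0.20, and without si-circVAMP3 replicate 1 or 2, at 0.26 and 0.21, with adjusted p from 0.0094 to 0.16 by limma. The most abundant class 4 gene, SEMA4C, read 13.6, 12.9 and 10.6 FPKM and 10.9 and 10.6 FPKM; its groups overlapped by the si-SCR replicate 3 value alone. Its log2 fold change was -0.20 (-0.45 to 0.05), not called, and -0.30, called, without that library. The FPKM level of SEMA6B rests on the exon length used by the study. The length recovered for it was 2144 bases, or a whole multiple if its read numbers shared a factor. GENCODE v44 gives the gene 4710 exonic bases. If 2144 was used, the GENCODE length would lower its mean FPKM from 60.0 to 27.3 and place it at rank 3 among members. With a multiple these values would not hold. The fold change would be the same either way.

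NTN1, the secreted cue netrin 1 (chr17:9021510-9244000), read 5.33, 5.05 and 4.89 FPKM in si-SCR and 3.46 and 3.40 FPKM in si-circVAMP3. The groups lay apart, at 5.09 ± 0.225 FPKM (SD, n = 3) and 3.43 ± 0.0407 FPKM (SD, n = 2), which is 32.6% lower. The log2 fold change was -0.56 (SE 0.07, -0.72 to -0.39, adjusted p = 0.0024 by limma), and the call held in all 15 alternatives, from -0.58 to -0.46. SLIT1, the only SLIT ligand with a row, was below the filter, at 0.131, 0.214 and 0.197 FPKM in si-SCR and 0.212 and 0.239 FPKM in si-circVAMP3, from 32 to 63 reads a library. The groups overlapped.

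**Figure D3:**
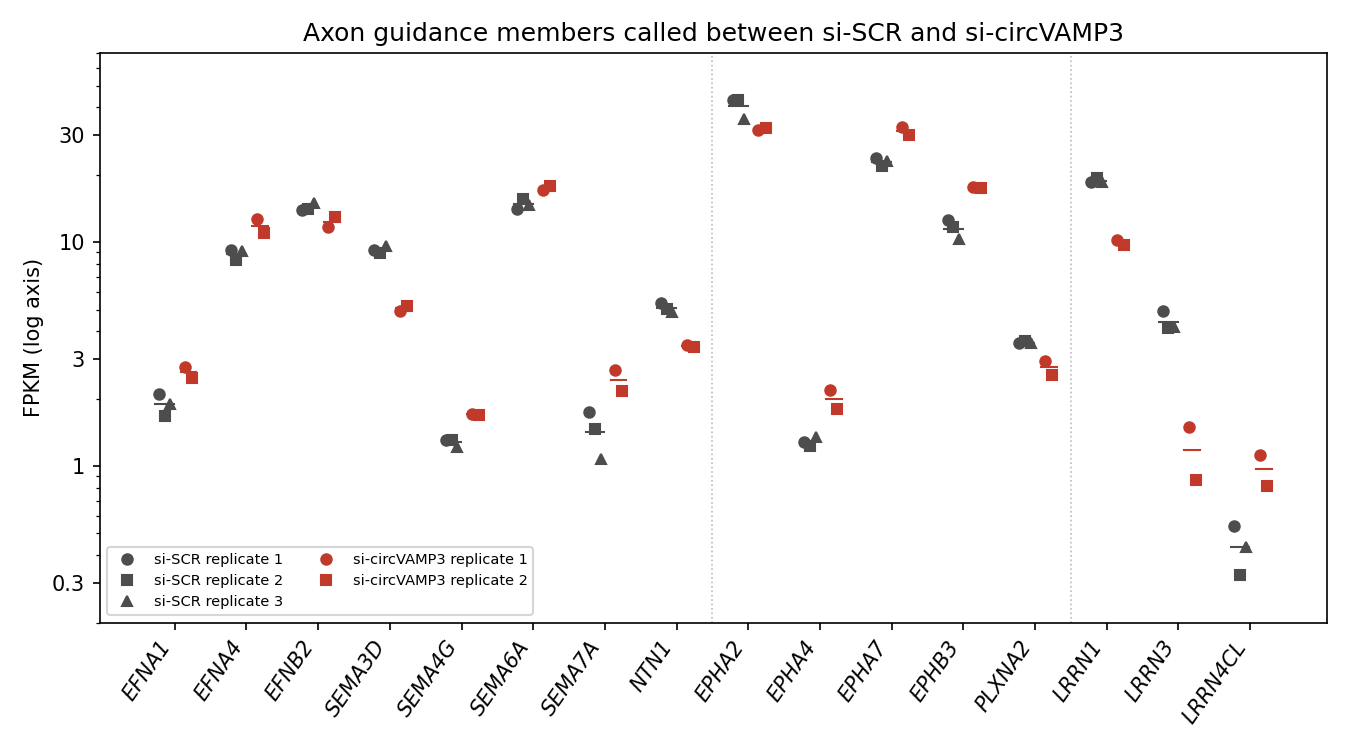
FPKM (log axis) of the 16 called members in each library, with si-SCR in grey, si-circVAMP3 in red, marker shapes for replicate numbers and short lines at group means; dotted lines part cues, receptors and LRRN genes. SEMA3D, NTN1, LRRN1 and LRRN3 show the widest gaps among lower members, and EFNB2 shows the narrowest gap overall.

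EPH receptors are tyrosine kinases that bind ephrins on neighbouring cells. Of 8 with a row, 6 were tested, of which 3 were called higher and 1 lower, beside 14.4% and 15.7% of all genes. EPHA7 (chr6:93240020-93419687) read 23.8, 21.9 and 23.1 FPKM in si-SCR and 32.7 and 30.0 FPKM in si-circVAMP3. The groups were 22.9 ± 0.957 FPKM (SD, n = 3) and 31.3 ± 1.90 FPKM (SD, n = 2), an increase of 36.8%. Its log2 fold change was 0.45 (SE 0.06, 0.31 to 0.59, adjusted p = 0.0029 by limma), and the call held in all 15 alternatives, from 0.39 to 0.51. The length recovered for EPHA7 was 7468 bases, or a whole multiple if its read numbers shared a factor, where GENCODE v44 gives 16460. If 7468 was used, the longer length would lower its mean of 26.3 FPKM to 11.9, in every library alike. By the deposited values it was second in FPKM among the EPH genes. At 11.9 FPKM it would stand below EPHB4 and EPHB3 as well as EPHA2. EPHB3 (chr3:184561785-184582408), a receptor of ephrin-B ligands, read 12.5, 11.7 and 10.3 FPKM and 17.7 and 17.5 FPKM. Both si-circVAMP3 values were above all si-SCR values, by 52.9% between means of 11.5 ± 1.11 FPKM (SD, n = 3) and 17.6 ± 0.119 FPKM (SD, n = 2). This corresponded to a log2 fold change of 0.61 (SE 0.08, 0.41 to 0.81, adjusted p = 0.0034 by limma), which kept its call in all 15 alternatives, from 0.54 to 0.67. EPHA4, which binds ephrins of both classes, was less abundant, at 1.28, 1.23 and 1.35 FPKM and 2.18 and 1.79 FPKM. Both si-circVAMP3 values were above si-SCR but differed from each other, with replicate 1 the higher. Its log2 fold change of 0.58 (0.31 to 0.86, adjusted p = 0.012 by limma) lost its call without si-circVAMP3 replicate 1, at 0.45, and its adjusted p ran from 0.0041 to 0.088 over the alternatives.

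EPHA2, a receptor much studied in epithelial and tumour cells, was the most abundant EPH gene and, of the 6 tested, the one called lower. It read 43.3, 43.0 and 35.4 FPKM in si-SCR and 31.7 and 32.5 FPKM in si-circVAMP3. Its si-SCR replicate 3 value lay closer to si-circVAMP3 than to the other si-SCR libraries, yet the groups did not overlap. The log2 fold change was -0.33 (-0.55 to -0.12, adjusted p = 0.034 by limma), and without si-SCR replicate 3 it was -0.43. The call was lost without si-SCR replicate 1 or 2, at -0.28 and -0.29, without si-circVAMP3 replicate 1 or 2, at -0.32 and -0.35, and without the intensity trend, with adjusted p from 0.0011 to 0.16 by limma. EPHB4, a receptor of EFNB2 and the most abundant EPHB gene, read 21.1, 19.6 and 15.8 FPKM and 21.9 and 22.9 FPKM. The groups did not overlap, but the log2 fold change of 0.26 (-0.02 to 0.53) was not called, and it was 0.14 without si-SCR replicate 3 and 0.34 without si-SCR replicate 1. The remaining tested gene, EPHB2, overlapped between groups.

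Plexins are the transmembrane receptors of semaphorins, and neuropilins are their coreceptors for class 3 ligands. Of 11 with a row, 10 were tested and 1 was called. PLXNA2 read 3.54, 3.61 and 3.53 FPKM in si-SCR and 2.96 and 2.56 FPKM in si-circVAMP3. The si-SCR values lay within 0.1 FPKM of each other and both si-circVAMP3 values were below them. This gave a log2 fold change of -0.36 (-0.56 to -0.16, adjusted p = 0.021 by limma); the call was lost without si-SCR replicate 2, at -0.35, and without si-circVAMP3 replicate 2, at -0.26, in a range of adjusted p from 0.0036 to 0.13. The other 9 had log2 fold changes between -0.17 and 0.20 and overlapping groups. The most abundant plexin A gene, PLXNA1, read 14.3, 13.4 and 9.53 FPKM and 11.1 and 11.7 FPKM. Its si-SCR replicate 3 value was the lowest of the 5 libraries. Its log2 fold change was -0.11 (-0.50 to 0.29) with all libraries, -0.28 and called without si-SCR replicate 3, and 0.01 without si-SCR replicate 1. PLXND1, a receptor for class 3 semaphorins, read 10.2, 10.2 and 8.39 FPKM and 9.42 and 9.17 FPKM, with overlapping groups and a log2 fold change of -0.04 (-0.26 to 0.19). NRP2 read 9.64, 10.0 and 8.79 FPKM and 9.14 and 9.43 FPKM, again overlapping, at -0.03 (-0.19 to 0.14).

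ROBO1, the receptor of SLIT ligands and the third most abundant member, read 32.2, 32.1 and 31.6 FPKM in si-SCR and 32.1 and 29.6 FPKM in si-circVAMP3. Its groups overlapped and its interval was the narrowest of the members, -0.05 (-0.17 to 0.06) on the log2 scale. ROBO3 was not called and ROBO2 was below the filter. UNC5A, a repulsive netrin receptor and the most abundant netrin receptor with a row, read 1.69, 1.95 and 1.14 FPKM and 1.52 and 1.61 FPKM. The si-SCR values spread more widely than the groups differed, and the log2 fold change was 0.01 (-0.49 to 0.50). NEO1, which encodes neogenin, a receptor of netrins and repulsive guidance molecules, and SEMA4B, a transmembrane semaphorin, were named after their values were seen, because their intervals lay above 0 without a call, as did those of SEMA3B, EFNA2 and EFNA5. NEO1 read 1.15, 1.20 and 0.975 FPKM and 1.39 and 1.37 FPKM, with a log2 fold change of 0.29 (0.01 to 0.58, adjusted p = 0.11 by limma). SEMA4B read 1.16, 1.14 and 0.961 FPKM and 1.31 and 1.40 FPKM, with a log2 fold change of 0.30 (0.01 to 0.58, adjusted p = 0.1 by limma). In both genes the groups did not overlap, and without si-SCR replicate 3 the estimates were 0.21 and 0.22.

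The 3 LRRN genes with a row were all called, 2 lower and 1 higher, beside 30.2% of all genes, the higher one having passed the filter only through si-circVAMP3. Among the 44 members tested, LRRN3 and LRRN4CL had the largest log2 fold changes of FPKM + 0.1 in each direction, whereas SEMA5B, below the filter, fell by a larger share of its FPKM than LRRN3. LRRN3 (ENSG00000173114, chr7:111091006-111125454, plus strand) read 4.92, 4.14 and 4.16 FPKM in si-SCR and 1.49 and 0.869 FPKM in si-circVAMP3. These came from 509, 401 and 402 reads in si-SCR and 107 and 97 in si-circVAMP3. Every si-circVAMP3 value was far below every si-SCR value, although the si-circVAMP3 libraries also differed from each other, replicate 2 being the lower. The group means were 4.41 ± 0.448 FPKM (SD, n = 3) and 1.18 ± 0.439 FPKM (SD, n = 2), a level 73.2% lower, and the log2 fold change was -1.86 (SE 0.20, 95% interval -2.35 to -1.37, adjusted p = 0.0017 by limma). It kept its call in all 15 alternatives, and its log2 fold change ran from -2.21 to -1.32, the weakest of these with the pseudocount of 1. LRRN1 (ENSG00000175928, chr3:3799431-3849834, plus strand) read 18.6, 19.4 and 18.5 FPKM and 10.2 and 9.71 FPKM. Replicates lay close together within each group, at 18.8 ± 0.530 FPKM (SD, n = 3) and 9.98 ± 0.382 FPKM (SD, n = 2), a level 47.0% lower. Its log2 fold change was -0.91 (SE 0.05, -1.03 to -0.79), with the smallest adjusted p of the members, 2.0e-04 by limma, and it kept its call in all 15 alternatives, from -0.95 to -0.85.

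LRRN4CL, a small relative of LRRN4, was near the filter, at 0.542, 0.326 and 0.435 FPKM in si-SCR and 1.12 and 0.816 FPKM in si-circVAMP3. This rested on 32, 18 and 24 reads in si-SCR and 46 and 52 in si-circVAMP3. Both si-circVAMP3 values were above all si-SCR values, and the gene passed the filter through the si-circVAMP3 group, since its si-SCR mean of 0.434 FPKM alone was below 0.5. The log2 fold change was 1.01 (0.48 to 1.53, adjusted p = 0.017 by limma), lost without si-circVAMP3 replicate 1, at 0.80, and without si-circVAMP3 replicate 2, at 1.21. The study's own filter, given below, was met by this gene only with both si-circVAMP3 libraries, so no fit here is free of that selection. Fitted with no filter the log2 fold change was the same, as it must be, at adjusted p = 0.015 by limma. With a pseudocount of 1 it was 0.46, and adjusted p by limma ran from 0.0099 to 0.12 over 14 alternatives, since the stricter filter removed it. Its exons overlap those of BSCL2 on the same strand, so reads in the shared bases are uncertain.

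The 10 members below the filter were EPHA3, EPHB1, PLXNB3, ROBO2, SEMA3E, SEMA4D, SEMA5B, SLIT1, UNC5B and UNC5CL, each covered by 8 to 94 reads a library. SEMA5B, a transmembrane semaphorin and the only class 5 gene with a row, read 0.167, 0.193 and 0.226 FPKM in si-SCR and 0.0507 and 0.0408 FPKM in si-circVAMP3, from 38, 41 and 48 reads in si-SCR and 8 and 10 in si-circVAMP3. EPHA3, named after its values were seen, read 0.342, 0.341 and 0.573 FPKM and 0.189 and 0.137 FPKM, from 60, 56 and 94 reads in si-SCR and 23 and 26 in si-circVAMP3. For both genes every si-circVAMP3 value was below every si-SCR value. When all genes were fitted with no filter, these were the members called in addition to the 16, at log2 fold changes of -1.01 (-1.39 to -0.64) for SEMA5B and -0.96 (-1.50 to -0.42) for EPHA3, which the pseudocount of 0.1 FPKM understates at such levels. The study's methods name a filter at a CPM, reads scaled to library size alone, of 1 in at least 3 libraries. On the recovered reads all 54 members and 95.5% of the rows met this, and 625 rows of the table did not. SEMA5B met it through its si-SCR libraries alone, since neither si-circVAMP3 library reached a CPM of 1. Its place in the table thus rests on the group where it was higher, and its call is a description only.

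Signalling below these receptors runs through adaptors, kinases and regulators of actin. Of 76 such partner genes, listed for their known part in guidance signalling, 64 had a row and 59 were tested; 5 were called higher and 12 lower, 28.8% together beside 30.2% of all genes, with a median log2 fold change of -0.04. VASP, which drives the elongation of actin filaments, read 25.4, 24.7 and 24.1 FPKM in si-SCR and 41.1 and 41.9 FPKM in si-circVAMP3. Its groups lay far apart, with a log2 fold change of 0.74 (0.64 to 0.85, adjusted p = 2.2e-04 by limma). ENAH, a second protein of the same Ena/VASP family, went the other way, from 26.4, 27.2 and 27.3 FPKM to 16.5 and 16.8 FPKM. Its groups were as clearly separate, with a log2 fold change of -0.69 (-0.79 to -0.59, adjusted p = 2.6e-04 by limma). NTN4, a secreted netrin related to laminins, read 1.89, 1.78 and 2.08 FPKM and 1.02 and 0.900 FPKM, at a log2 fold change of -0.92 (-1.19 to -0.66). VAV3, a signalling protein of the VAV family activated by tyrosine kinases, read 8.64, 9.23 and 9.77 FPKM and 5.04 and 5.48 FPKM, at -0.80 (-0.97 to -0.62). Both were lower in every si-circVAMP3 library than in any si-SCR library. GIPC1, an adaptor that binds semaphorins and neuropilin 1, read 10.8, 10.3 and 8.75 FPKM and 5.91 and 6.56 FPKM, at -0.66 (-0.90 to -0.42). FYN, a kinase of the SRC family used by several guidance receptors, read 6.71, 6.48 and 6.53 FPKM and 4.42 and 4.36 FPKM, at -0.57 (-0.71 to -0.44). These again did not overlap between groups. Among the partners that were higher, NTN5, FLRT3, VEGFA and LIMK2 followed VASP, with log2 fold changes of 0.55, 0.52, 0.41 and 0.20. The calls of VASP, ENAH, NTN4, VAV3, GIPC1 and FYN held in all 15 alternatives. That of NTN5 was lost with a replicate block, without si-SCR replicate 2 and without si-circVAMP3 replicate 1, at 0.53, 0.56 and 0.39, and that of FLRT3 without si-SCR replicate 1, si-SCR replicate 2 or si-circVAMP3 replicate 1, at 0.50, 0.52 and 0.39. VEGFA lost its call without si-circVAMP3 replicate 1 or 2, at 0.40 and 0.42, and LIMK2 when any of the 5 libraries was left out, at 0.15 to 0.26. LIMK2 also lost its call with no filter, with median centring, without the intensity trend and with a replicate block, which left it called in 6 of 15 alternatives. Without si-SCR replicate 2 and without si-circVAMP3 replicate 1 or 2, the partners called fell from 17 to 11, 9 and 10. NTN5 is a netrin, FLRT3 a membrane ligand of UNC5 receptors, VEGFA a growth factor that also binds neuropilins, and LIMK2 a kinase that inactivates the actin-severing protein cofilin.

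**Figure D4:**
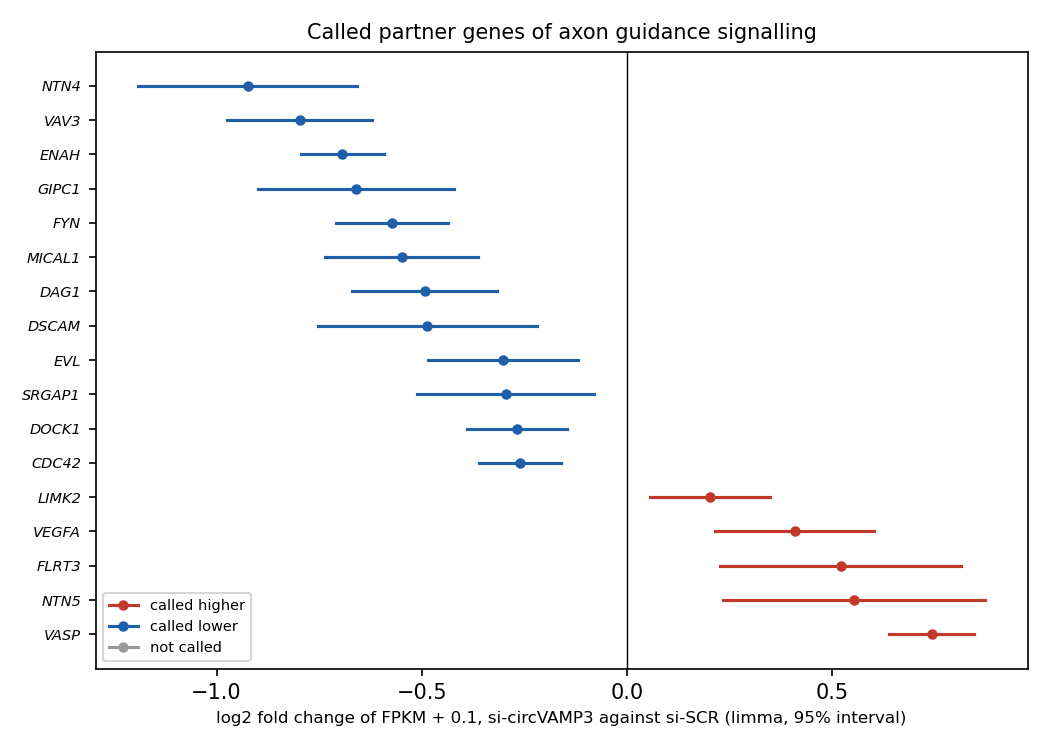
Log2 fold change of FPKM + 0.1 in si-circVAMP3 against si-SCR with its 95% interval from limma for the 17 partner genes called, of 59 tested, sorted from lowest to highest and coloured by call. NTN4 lies lowest at -0.92 and VASP highest at 0.74, and LIMK2 lies nearest to 0.

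The 3′ UTRs of the tested genes were searched for GTGGACA, the 7 letters that pair with bases 2 to 8 of the antisense strand printed above, on the sense strand of the canonical transcript in GENCODE v44. The letters were found in 11.5% of the 10924 tested genes with an annotated 3′ UTR. They were present in 23.9% of the genes called lower, in 9.92% of those not called and in 5.57% of those called higher, whose median 3′ UTR lengths were 1736, 1361 and 1076 bases. Among the members they were present in 3 of 7 called lower, 4 of 28 not called and 1 of 9 called higher. The members called lower had a median 3′ UTR of 3295 bases, against 1590 for those not called and 1386 for those called higher. The first match in each of the 3 lower members is printed with 10 bases on either side, in capitals where the letters match, because these members are among those with the values given above.
LRRN3: tacagttcaaGTGGACAaaaacatttc
NTN1: catttggggaGTGGACAgctcctgtcc
PLXNA2: tcagcctctcGTGGACAcccacatctc
These lie at chr7:111125173-111125199 on the plus strand, chr17:9240574-9240600 on the plus strand and chr1:208022834-208022860 on the minus strand of GRCh38. NTN1 held the letters 3 times in a 3′ UTR of 4032 bases, PLXNA2 once in 5001 bases and LRRN3 once in 555 bases. LRRN1, SEMA3D, EPHA2 and EFNB2, also called lower, did not hold them, and SEMA4G, called higher, did. Among the partners, 5 of the 12 called lower held them, NTN4, VAV3, ENAH, DOCK1 and SRGAP1, as did 4 of 42 not called and 0 of 5 called higher, with median 3′ UTR lengths of 1721, 2442 and 1639 bases. A match is a description of the sequence, and its part in the levels of these genes was not tested.

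**Figure D5:**
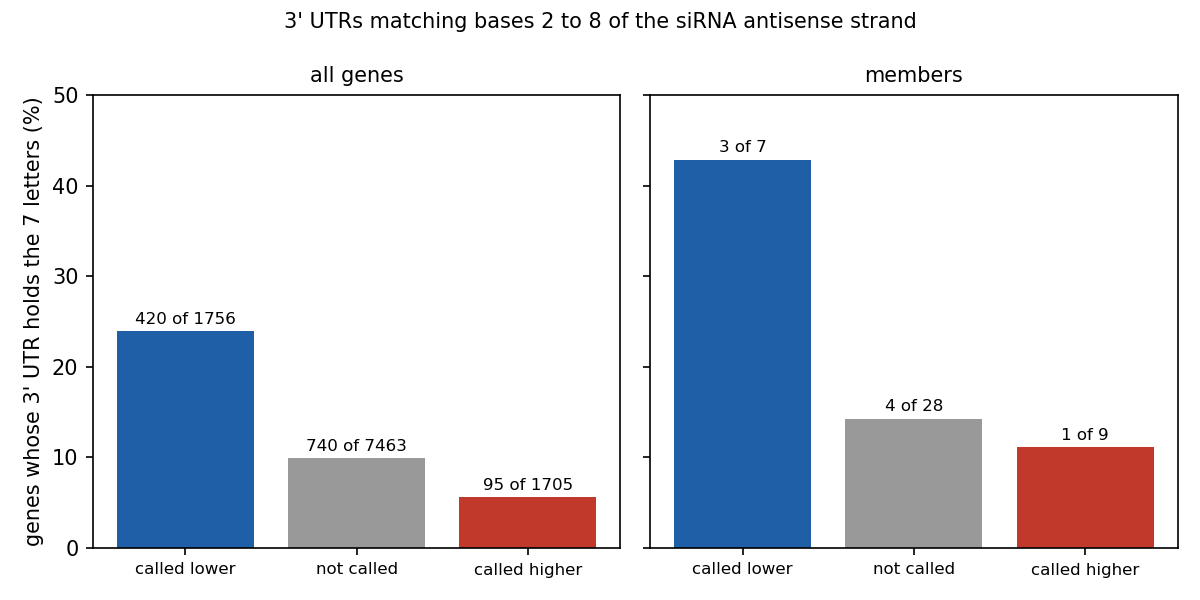
Share of genes whose 3′ UTR holds the 7 letters, in percent, by call, for all tested genes with an annotated 3′ UTR (left) and for the members (right), with counts above the bars. Over all genes the share is 23.9% for those called lower and 5.57% for those called higher; over members the counts are 3 of 7 and 1 of 9.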

How the data were processed

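The authors aligned stranded poly-A+ reads to GRCh38 with STAR 2.5.2b, counted them per gene with HTSeq on an Ensembl annotation and deposited FPKM values computed with edgeR for 3 si-SCR and 2 si-circVAMP3 libraries of RH4 cells. Gene symbols and families were taken from GENCODE v44, which matched 13783 of 13822 rows. FPKM ratios between libraries gave reads whole within 0.00001 for 100.0% of rows, 341 of them after restoring a common factor that the annotated length gave, with implied exon lengths whole within 0.01 base for 99.4%. Where the annotated length was not met, a common factor may remain lost, and reads and length would then both be too low. Genes with a mean of group means of at least 0.5 FPKM were fitted as log2(FPKM + 0.1) with limma 3.58.1 in R 4.3.3, with an intensity trend and group as the only term, and p-values were adjusted by the Benjamini-Hochberg method over all genes tested. The deposited unit is FPKM, so a test on reads was run only as an alternative. Intervals come from limma and cover 95%. An exact permutation test of 3 against 2 libraries cannot reach 0.05 and was not run. The fit was run on simulated data with the same spread in every gene. That differs from these libraries, so the run is no check of the calls given here. Control lists of genes responding to transfected RNA and of a further cell type are not reported here. The members and lists were chosen with earlier results of these data known. Called members, the most abundant member of each family, the 2 members nearest the threshold on each side, and the 5 partner genes with the largest change in each direction are named. Alternatives were pseudocounts of 1 and 0.01, no filter and a filter of 1 FPKM, median centring, quantile normalization, no intensity trend, protein-coding genes only, an added fold cut-off, a replicate block, each library left out and, chosen after seeing the data, limma voom on recovered reads. Sequences came from GENCODE v44 transcripts, the genome of the same build and the study's siRNA list.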

Additional observations from a re-analysis of the deposited data

How the results depend on the processing

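The counts of called genes were recomputed under 16 alternatives. Leaving out 1 library at a time moved the count of all genes called from 3693 to between 1267 and 3987, that of members from 16 to between 7 and 18 and that of partner genes from 17 to between 9 and 19. The lowest counts came without either si-circVAMP3 library, which leaves a lone library in that group that is assumed to vary like the si-SCR group, and without si-circVAMP3 replicate 1 the calls shifted from 9 higher and 7 lower members to 2 and 5. Requiring an absolute log2 fold change over 0.58 as well gave 679 genes, 7 members and 5 partner genes, by its own construction. Every other alternative kept the 3 counts within 1.5 times. No sign of a called member turned in any alternative. The 6 members LRRN1, LRRN3, SEMA3D, NTN1, EPHA7 and EPHB3 kept their calls in all 15 alternatives fitted gene by gene, and the other 10 lost theirs in at least 1.

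Replicate numbers 1 and 2 occur in both groups, and same-numbered libraries did not deviate together (r = -0.13 and -0.03 over genes). With 2 si-circVAMP3 libraries their deviations are mirror images, so these values cannot exclude a shared batch. The labels give no pairing beyond the number. With a replicate block 3138 genes, 16 members and 15 partner genes were called. EFNB2 and SEMA4G were not among these members and PLXNA1 and SEMA4C were. Replicate 3 occurs only in si-SCR, so the block also takes that library out of the comparison. Its log2 fold changes were those found without si-SCR replicate 3, such as -0.28 for PLXNA1 in both fits.

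With limma voom on recovered reads, chosen after seeing the data, 4109 genes, 17 members and 22 partner genes were called, and 16 of these members were those called above. Median centring and quantile normalization moved the median log2 fold change of all genes to 0.01 and 0.02.

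The comparison rests on 3 and 2 libraries with 1 siRNA in each group. An effect of losing the circle, of the lower linear VAMP3 mRNA and of the siRNA sequence itself cannot be told apart here. Levels of low members rest on few reads, 8 to 94 in those below the filter, and a p over the threshold does not show that values were alike. FPKM levels depend on the exon lengths used.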
